A study of Mus musculus with 12 samples.

Results

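Genes of the Wnt pathway that act at the cell surface or outside the cell were described across the cell classes of mouse motor cortex and between trained and control mice. All genes whose symbol is Wnt, Fzd, Sfrp, Dkk or Rspo followed by a digit were taken, together with Lgr4, Lgr5, Lgr6, Lrp5, Lrp6, Wif1, Axin2 and Dkkl1. The rule gave 50 of the 31053 genes in the count table. They were 19 Wnt ligands, 10 Frizzled receptors, 4 R-spondins, 3 Lgr receptors, 2 Lrp co-receptors, 10 secreted inhibitors, Axin2 and 1 antisense transcript, Rspo4os.

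The data were UMI counts (unique molecular identifiers, which count captured RNA molecules) from single nuclei of flash-frozen tissue, read from the 3′ end of the RNA. The tissue was right-hemisphere motor cortex (M1), from its caudal forelimb area, of mice 13 weeks old. All 6 mice received 1 mL of water a day in the home cage at first. From day 11 to day 13 the 3 control mice (mice 1, 3 and 5) stayed on that schedule. The 3 trained mice (mice 2, 4 and 6) were head-fixed in those days, pressed a lever with the left paw, and earned part of the same daily volume as reward. Both groups were therefore water-restricted, and head fixation and reward came together with the lever task. Neither strain, genotype nor sex is stated in the labels.

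Wnt proteins are secreted lipid-modified ligands. They bind Frizzled receptors, and with the co-receptors Lrp5 and Lrp6 they keep beta-catenin from being degraded, so that it can act with TCF/LEF factors in the nucleus. R-spondins bind Lgr4, Lgr5 and Lgr6 and keep Frizzled receptors at the surface, whereas Dkk, Sfrp and Wif1 proteins act outside the cell, Dkk on Lrp5 and Lrp6 and the others on the ligand. Axin2 is both a member of the complex that degrades beta-catenin and a widely used target gene of the pathway. In the brain the pathway is best known for its part in forming vessels of the blood-brain barrier.

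Promoter windows, 250 bases before to 50 after a gene's start, were available from RefSeq (GRCm38.p6) for 32 of the 50 genes, in 35 windows. They are shown for 3 genes highest in a neuronal class (an R-spondin, an inhibitor and a ligand) and for the pathway's readout: Rspo1 (chr4:124986180-124986479, plus strand), Dkk2 (chr3:132085042-132085341, plus strand), 1 of 3 windows of Wnt5b (chr6:119449337-119449636, minus strand) and Axin2 (chr11:108920099-108920398, plus strand). Each is written 5′ to 3′ on the gene's strand, and capitals mark the TCF/LEF core CTTTGA.
Rspo1: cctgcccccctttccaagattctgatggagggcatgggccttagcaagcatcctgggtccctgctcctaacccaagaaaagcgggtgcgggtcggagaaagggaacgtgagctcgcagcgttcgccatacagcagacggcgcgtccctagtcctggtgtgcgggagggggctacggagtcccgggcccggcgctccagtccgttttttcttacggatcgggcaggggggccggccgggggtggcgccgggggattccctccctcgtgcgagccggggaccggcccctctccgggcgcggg
Dkk2: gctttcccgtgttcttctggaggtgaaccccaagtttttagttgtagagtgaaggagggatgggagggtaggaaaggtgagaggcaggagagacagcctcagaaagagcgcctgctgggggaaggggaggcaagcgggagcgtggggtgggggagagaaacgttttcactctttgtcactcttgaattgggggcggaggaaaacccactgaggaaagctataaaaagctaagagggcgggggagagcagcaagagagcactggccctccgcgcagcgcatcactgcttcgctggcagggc
Wnt5b: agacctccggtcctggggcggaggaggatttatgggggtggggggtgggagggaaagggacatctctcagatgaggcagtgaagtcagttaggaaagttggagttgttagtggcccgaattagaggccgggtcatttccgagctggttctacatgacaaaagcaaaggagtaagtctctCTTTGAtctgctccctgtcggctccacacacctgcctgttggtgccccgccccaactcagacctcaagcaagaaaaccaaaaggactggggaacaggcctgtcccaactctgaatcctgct
Axin2: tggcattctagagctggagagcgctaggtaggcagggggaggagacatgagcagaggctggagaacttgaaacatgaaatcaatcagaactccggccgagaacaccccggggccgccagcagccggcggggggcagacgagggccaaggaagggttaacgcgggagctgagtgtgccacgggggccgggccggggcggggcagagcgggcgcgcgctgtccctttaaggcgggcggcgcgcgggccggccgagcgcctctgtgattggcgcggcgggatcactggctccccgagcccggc
The core, searched as CTTTGA and as its reverse complement TCAAAG, was found in 4 of the 35 windows (11.4%), those of Fzd1, Wnt5b, Wnt11 and Dkk1. It was found in 16.0% of all 32851 windows of that length. The Wnt5b window shown is the only one of its 3 that holds the core, at position -71 from an internal start, and the window at the gene's outermost start (chr6:119544298-119544597) has none. The windows of Rspo1, Dkk2 and Axin2 do not hold these letters.

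After nuclei with fewer than 500 genes or 5% or more mitochondrial UMIs (243 of 51926) and 2484 called doublets were removed, 49199 nuclei were kept, 28763 from control and 20436 from trained mice. Mice had 46798359 to 91495029 UMIs in the deposited table, and their median nucleus held 5212 to 7203.5 UMIs. The 2 groups overlapped in that median. Barcode sequences shared by more than 1 mouse numbered 311. Nuclei were clustered, and clusters were named from marker genes, so that each class below is "like" the type it is named for. Of the classes 20 had at least 20 nuclei in every mouse and were tested, and with the sum over all nuclei they gave 21 sums per mouse. One glutamatergic cluster of 4540 nuclei, led by Il1rapl2, Scube1, Deptor, Rxfp2, Dkkl1 and Scn7a, fitted no marker list and is called cluster 4. An unnamed cluster of 404 nuclei, 393 of them from trained mouse 6, entered only the sum over all nuclei. Levels are CPM, the UMIs of a gene scaled to a common total of UMIs in the class, given per mouse. They compare classes within a gene, and carry no test, because the classes were built from the same counts. Rspo1, Dkk2, Lgr5 and Dkkl1 were among the leading genes of their highest class. UMIs per mouse ranged from 66348 to 192106 in endothelial nuclei and from 5899562 to 15070331 in L2/3 IT nuclei, so values in the vascular classes rest on few molecules.

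All 50 genes had at least 1 UMI, and 28 reached a mean of 20 CPM in their highest class. Of those 28, 12 were highest in a vascular or meningeal class, 8 in a neuronal class and 8 in a glial class. Vascular and leptomeningeal cells (VLMC, the fibroblasts of the vessel wall and meninges) were the highest class for 9. Over the 6 mice the highest class did not overlap the second for 8 of the 28: Fzd2, Fzd4, Fzd9, Rspo1, Lgr6, Wnt5b, Wnt6 and Dkk3. The highest class was the same in control and in trained mice for 22 of the 28, the exceptions being Wnt7a, Lrp6, Fzd3, Wnt9a, Axin2 and Wnt7b.

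**Figure D1:**
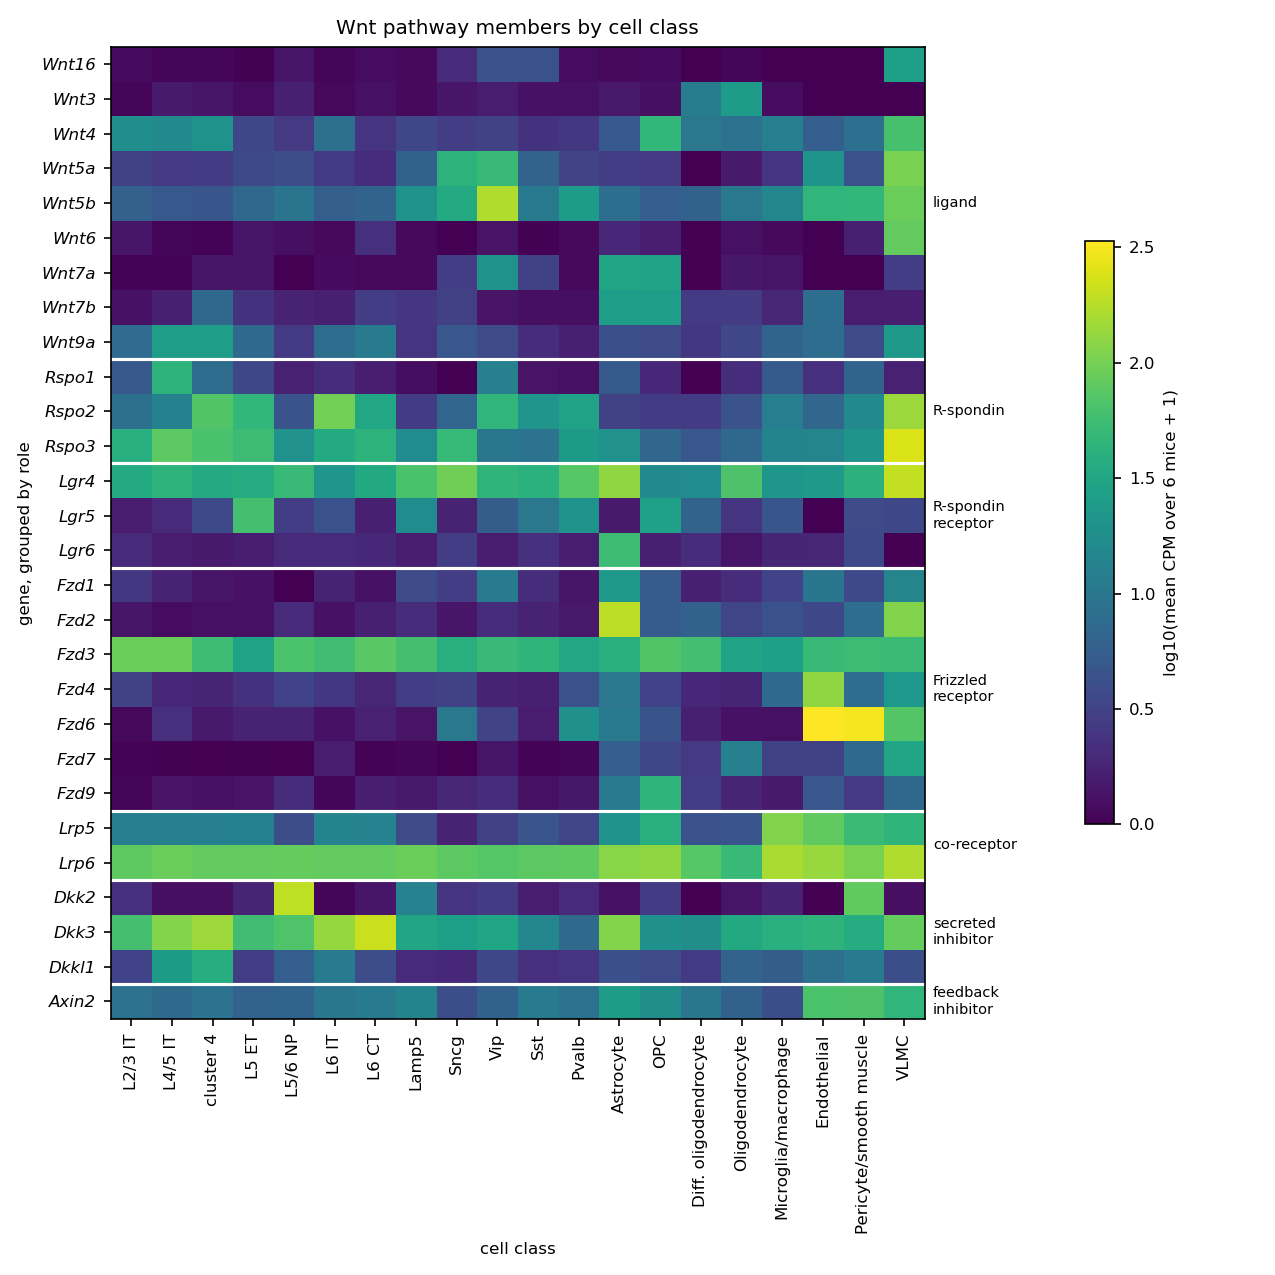
Heatmap of log10(mean CPM + 1) over 6 mice for the 28 genes that reached 20 CPM (rows) in 20 cell classes (columns). Fzd3 and Lrp6 reached 20 CPM in all 20 classes, whereas 8 genes did so in 1 class.

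Among the ligands, Wnt5b was highest in Vip interneurons (chromosome 6, 119432531 to 119544347, minus strand). Control mice 1, 3 and 5 had 225, 139 and 147 CPM, and trained mice 2, 4 and 6 had 140.4, 201 and 146 CPM. Every mouse was above the VLMC, the next class, at 89.2 ± 23.6 CPM (SD, n = 6), and control and trained mice overlapped. Wnt5a, best known for signalling without beta-catenin, was highest in VLMC, with 87.9, 134 and 88.1 CPM in controls and 63.3, 146 and 99.3 CPM in trained mice. Vip interneurons followed at 50.7 ± 15.9 CPM and Sncg interneurons at 42.3 CPM, so the 2 Wnt5 genes shared these classes in opposite order. Wnt6 was 87.9, 69.2 and 123 CPM in control and 63.3, 94.1 and 53.8 CPM in trained VLMC. Its second class, L6 CT neurons, had 1.23 CPM. Wnt4 was 58.6, 69.2 and 69.2 CPM in control and 46.4, 77.9 and 41.4 CPM in trained VLMC, and 46.1 ± 10.3 CPM in oligodendrocyte precursors (OPC), which overlapped it. Wnt16 was the sparsest of the 28, with 58 UMIs in VLMC in all. Its VLMC values were 12.2, 7.69 and 0 CPM in controls and 75.9, 17.8 and 39.3 CPM in trained mice. All trained mice lay above all controls, but the gene was too sparse in VLMC to pass the filter for the test. Of its 58 UMIs, 42 were in VLMC cluster 22, 14 in cluster 25 and 2 in cluster 16, and cluster 22 held 4.59 to 24.1% of control and 15.5 to 47.8% of trained VLMC nuclei. The part of that makeup in the Wnt16 values was not tested. The 0 allows up to 9.44 CPM (3 UMIs), counting error only.

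The glial ligands were lower. Wnt7a and Wnt7b, ligands that act on brain endothelium, were highest in astrocytes and OPC. Wnt7a was 31.5, 29.5 and 38.8 CPM in control and 31.4, 29.4 and 15.3 CPM in trained astrocytes, against 27.9 CPM in OPC. Vip interneurons followed at 18.4 ± 5.86 CPM and overlapped OPC. Wnt7b was 18.2, 31.7 and 29.1 CPM in control and 23.3, 36.5 and 11.2 CPM in trained OPC, against 24.7 ± 6.27 CPM in astrocytes. For both genes the order of astrocytes and OPC lay within the spread over mice. Wnt3 was highest in oligodendrocytes, with 22.0, 21.9 and 22.2 CPM in controls and 32.3, 23.6 and 21.3 CPM in trained mice. Wnt9a was highest in neurons: cluster 4 had 26.4, 25.5 and 28.9 CPM in controls and 19.9, 27.6 and 23.2 CPM in trained mice. L4/5 IT neurons had 25.0 ± 1.66 CPM and VLMC 22.3 CPM, within the spread over mice.

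Frizzled receptors divided over vessels, glia and neurons. Fzd6 was highest in endothelial nuclei, with 328, 312 and 333 CPM in controls and 307, 381 and 347 CPM in trained mice. Pericytes and smooth muscle overlapped it at 307 ± 69.1 CPM, VLMC had 69.2 ± 9.39 CPM, and the next class, Pvalb interneurons, had 17.4 CPM. Fzd4, the receptor for norrin in vessels, was 211, 109 and 87.6 CPM in control and 99.9, 191 and 60.3 CPM in trained endothelial nuclei. Its next class, VLMC, had 21.2 ± 16.2 CPM. Both receptors were thus vascular, with Fzd4 the more variable over mice. Fzd2 was highest in astrocytes, at 189.7, 189.9 and 138 CPM in controls and 234, 193 and 177 CPM in trained mice, against 109 ± 11.1 CPM in VLMC. Fzd9 marked OPC, at 39.9, 53.7 and 41.3 CPM in controls and 46.7, 46.0 and 33.7 CPM in trained mice, with astrocytes next at 10.3 ± 2.21 CPM. Fzd1 was 19.7, 26.8 and 19.4 CPM in control and 24.0, 22.2 and 19.8 CPM in trained astrocytes. These 3 receptors were highest in glia but not confined to them. Fzd2 was also high in VLMC, and Fzd1 had 13.1 ± 5.56 CPM there, overlapping astrocytes, and 9.77 CPM in Vip interneurons. Fzd7 was 9.77, 36.9 and 44.1 CPM in control and 29.5, 29.2 and 31.0 CPM in trained VLMC. Fzd3, which acts in axon guidance, was broad: L2/3 IT neurons had 92.9, 93.5 and 96.1 CPM in controls and 80.5, 91.7 and 89.8 CPM in trained mice. L4/5 IT neurons overlapped them at 90.1 ± 6.80 CPM, and the lowest class, microglia and macrophages, had 25.4 CPM.

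The 3 R-spondins above 20 CPM were all found in glutamatergic neurons, and Rspo2 and Rspo3 were higher still in VLMC, except that Rspo2 was higher in L6 IT neurons (122 CPM, VLMC 112 CPM) when classes were scaled by TMM. Rspo1 (chromosome 4, 124986430 to 125009099, plus strand) was highest in L4/5 IT neurons, with 41.5, 39.7 and 53.0 CPM in controls and 50.3, 34.7 and 33.7 CPM in trained mice. Vip interneurons were next, at 11.5 ± 6.30 CPM, and did not reach the lowest L4/5 IT mouse. Rspo2 was 109.9, 200.0 and 183 CPM in control and 33.7, 169 and 139 CPM in trained VLMC. L6 IT neurons had 95.8 ± 18.6 CPM and cluster 4 had 68.6 ± 9.65 CPM, and the VLMC and L6 IT ranges overlapped. Rspo3 (chromosome 10, 29452416 to 29535867, minus strand) was 332, 165 and 85.0 CPM in control and 375, 195 and 294 CPM in trained VLMC. Neurons followed, with 76.6 ± 11.7 CPM in L4/5 IT, 61.7 ± 13.2 CPM in cluster 4 and 53.5 ± 9.13 CPM in L5 ET. The R-spondin receptors were placed otherwise. Lgr5 was highest in L5 ET neurons, with 65.6, 43.4 and 69.5 CPM in controls and 67.9, 51.5 and 54.8 CPM in trained mice, and OPC had 26.7 ± 14.5 CPM. Lgr6 was astrocytic, at 52.6, 42.2 and 79.9 CPM in controls and 59.98, 49.0 and 33.1 CPM in trained mice, and its next class had 2.70 ± 4.18 CPM. Lgr4 was widespread, reaching 20 CPM in 18 classes, and was highest in VLMC at 144, 223 and 227 CPM in controls and 127, 216 and 229.6 CPM in trained mice, overlapping astrocytes at 126 ± 21.1 CPM.

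**Figure D2:**
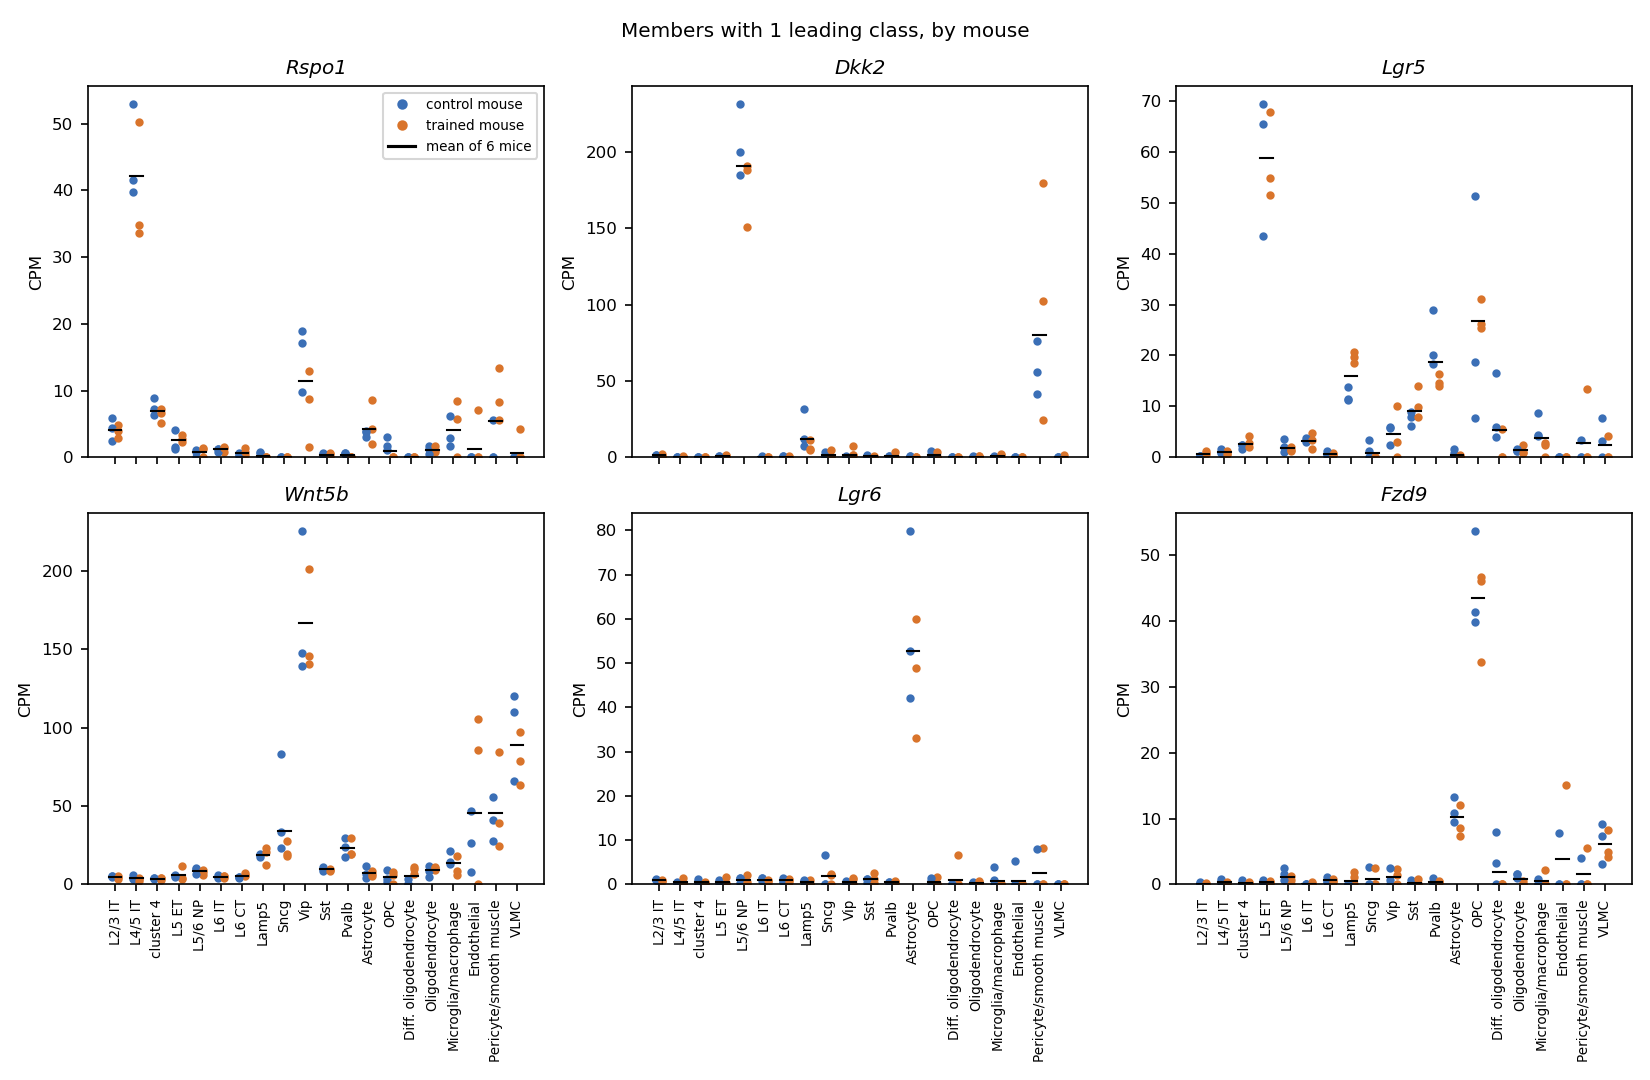
CPM of Rspo1, Dkk2, Lgr5, Wnt5b, Lgr6 and Fzd9 by cell class. Points are the 6 mice by group and black lines are their means, and each gene stands highest in a different class.

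Co-receptor Lrp6 was 144, 160.0 and 164 CPM in control and 224, 174 and 141 CPM in trained VLMC, and microglia and macrophages overlapped it at 158 ± 17.7 CPM. Its lowest class, oligodendrocytes, still had 49.1 CPM. Lrp5 was highest in microglia and macrophages, with 107, 111 and 113 CPM in controls and 109, 131 and 99.5 CPM in trained mice. Endothelial nuclei had 80.1 ± 30.4 CPM. Axin2 was highest in vessels: pericytes and smooth muscle had 33.5, 72.0 and 91.9 CPM in controls and 80.2, 49.2 and 67.3 CPM in trained mice. Endothelial nuclei had 64.3 ± 31.0 CPM, VLMC 44.8 CPM and astrocytes 23.9 CPM, while microglia and macrophages had 3.03 CPM. The first 2 of these classes did not differ beyond their spread.

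Of the inhibitors, 3 reached 20 CPM, all of them in glutamatergic neurons. Dkk3, a Dkk relative that does not bind Lrp6 as the others do, was 205, 223 and 192 CPM in control and 209, 231 and 198 CPM in trained L6 CT neurons. Cluster 4 followed at 141 ± 7.51 CPM and astrocytes had 114 ± 27.5 CPM, whereas Pvalb interneurons had 6.47 CPM. Dkk2 (chromosome 3, 132085292 to 132180304, plus strand) was highest in L5/6 NP neurons, with 185, 232 and 199.9 CPM in controls and 191, 188 and 151 CPM in trained mice. Pericytes and smooth muscle were next, at 79.9 ± 55.8 CPM, and Lamp5 interneurons had 12.1 CPM. Dkkl1 was 28.3, 37.4 and 34.7 CPM in control and 38.1, 46.0 and 34.2 CPM in trained cluster 4, against 23.0 ± 3.94 CPM in L4/5 IT neurons. The other 22 genes stayed under 20 CPM in every class. The highest of them were Sfrp1 in VLMC at 17.0 CPM and Sfrp2 in pericytes and smooth muscle at 15.3 ± 16.9 CPM, and at the other end Dkk4 had 8 UMIs, Dkk1 had 5 and Rspo4os had 3. Whether counting used the strand is not given in the sources used here, so values of genes overlapped on the other strand, Rspo3, Rspo1, Lgr5, Axin2, Wnt5b, Wnt5a, Wnt6, Wnt7b, Sfrp2 and Rspo4, may include reads of the partner.

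Within VLMC, 3 clusters divided these genes between them. Cluster 16 (672 nuclei, led by Bmp6, Slc6a20a, Ranbp3l and Lama1) held most of Rspo2 and of the ligands Wnt4, Wnt5a and Wnt6. Rspo2 was 197 ± 58.5 CPM there against 11.8 in cluster 22 and 5.00 in cluster 25. Wnt5a was 151 ± 35.9 CPM in cluster 16 against 1.52 in cluster 22, and Wnt4 was 93.0 ± 25.3 against 4.55. Wnt6 was 119 ± 32.1 CPM in cluster 16 and had no UMI in cluster 22, which allows up to 4.91 CPM (3 UMIs). Cluster 22 (164 nuclei, led by Bnc2, Eya2, Slc47a1 and Mgp) held Rspo3, at 866 ± 207 CPM against 17.5 ± 6.49 in cluster 16 and 342 ± 176 in cluster 25 (74 nuclei, led by Fn1, Prg4, Dpp4 and Cdh1). Rspo2 and Rspo3 were thus highest in different fibroblast clusters. Among astrocytes, Fzd2 was 195 ± 31.0 CPM in cluster 1 (5736 nuclei) and 13.6 ± 18.2 CPM in cluster 18 (328 nuclei, led by Myoc, Gfap and Aqp4), whereas Lgr6 was 51.6 and 83.9 ± 43.3 CPM. Lrp5 was 131 ± 12.8 CPM in the microglial cluster 7 (2556 nuclei) and 21.9 ± 12.8 CPM in cluster 24 (111 nuclei, led by the macrophage genes F13a1 and Mrc1).

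No Wnt gene passed the test between trained and control mice in any class. UMIs were summed per mouse and class, and edgeR's quasi-likelihood test was run on all genes with Benjamini-Hochberg adjustment within each sum. Of 288 tests of 41 genes, 0 had an adjusted p under 0.05, and the smallest was 0.343. Over all genes 0.012% of 216284 tests were past that threshold (26 tests). At an unadjusted p under 0.05 there were 22 tests of Wnt genes (7.64%), 15 lower and 7 higher in trained mice, against 3.99% of all tests (1.8% lower and 2.19% higher), and DESeq2 gave 19 with 0 past the adjusted threshold. Groups did not overlap in 45 tests (15.6%), 33 lower and 12 higher, against 9.28% of all tests (4.45% lower and 4.83% higher). The median log2 change was -0.05 for Wnt genes and -0.0039 for all genes. Without Rspo3, singled out after its values were seen, 16 of 272 tests (5.88%) had an unadjusted p under 0.05, 9 lower and 7 higher. Groups did not overlap in 39 of those 272 tests (14.3%), 27 lower and 12 higher. The sums share mice and all-nuclei sums hold the classes, so these counts are not independent of one another. The 9 genes too sparse to be tested in any sum were Dkk1, Dkk4, Rspo4, Rspo4os, Sfrp5, Wnt11, Wnt8a, Wnt8b and Wnt9b.

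**Figure D3:**
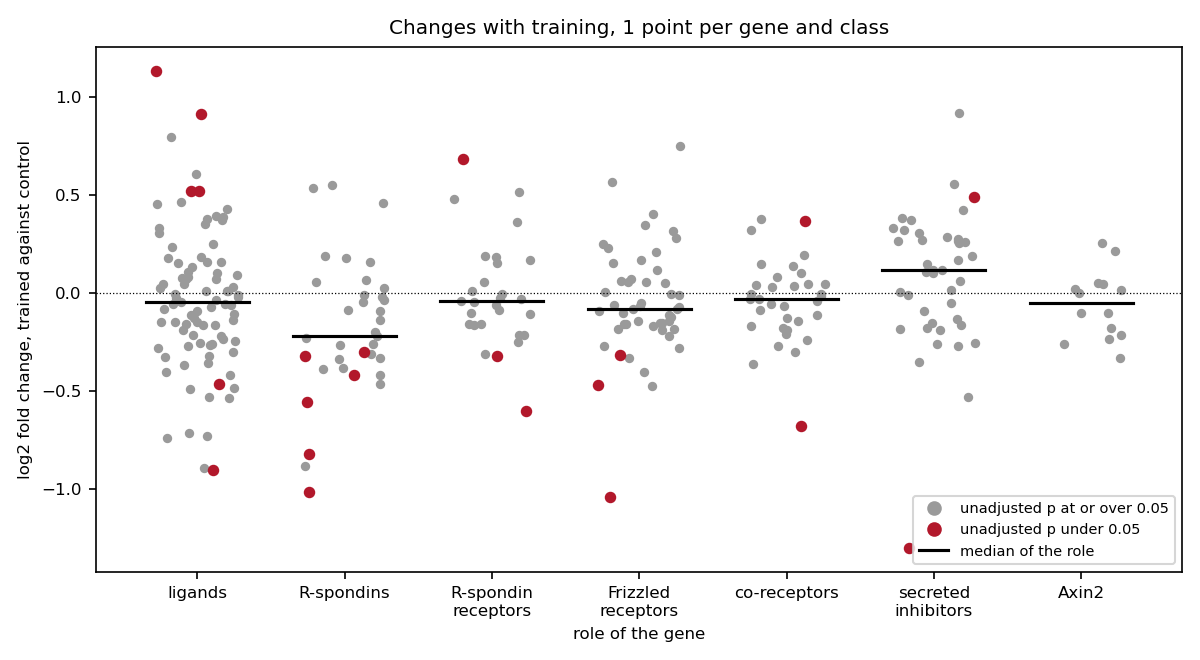
Log2 change (trained against control) of each Wnt gene in each class or the all-nuclei sum, by role. Points are tests, red points have an unadjusted p under 0.05, and lines are the medians of each role, lowest for the R-spondins at -0.22.

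By role, R-spondins had the lowest median log2 change, -0.22, with 26 of 35 tests lower in trained mice, where 50.9% of the tests of all genes were lower. Their 6 tests at an unadjusted p under 0.05 were all of Rspo3. Frizzled receptors had a median of -0.08 (31 of 49 lower), ligands -0.04 (49 of 87), Lgr receptors -0.04 (18 of 28) and co-receptors -0.03 (21 of 34). Secreted inhibitors had a median of 0.12, with 26 of 41 higher. Of these tests 18 were of Dkk3 (11 higher) and 9 of Dkkl1 (6 higher), which were counted as inhibitors by name. Axin2 had 14 tests, 7 in each direction, 0 at an unadjusted p under 0.05 by edgeR, and a median of -0.05. In astrocytes Axin2 was 24.1 ± 2.85 CPM in controls and 23.9 ± 4.93 CPM in trained mice (SD, n = 3), and in the sum over all nuclei 9.69 ± 0.466 and 9.03 ± 1.10 CPM.

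Rspo3 was lower on average in trained mice in 13 of its 16 sums, and in none did it pass the test. Its largest log2 change was -1.02, in Sst interneurons. All 7 glutamatergic classes were among the 13, with a median log2 change of -0.32. CPM in the comparison are scaled by TMM. In Pvalb interneurons it was 37.4, 27.5 and 23.4 CPM in controls and 16.3, 18.8 and 15.0 CPM in trained mice. Every trained mouse lay under every control mouse there, with a log2 change of -0.82 ± 0.20 (SE) and an edgeR adjusted p of 1.00 (unadjusted p = 0.00127). L5 ET neurons had 62.7, 57.1 and 64.1 CPM in controls and 39.3, 46.3 and 53.3 CPM in trained mice, a log2 change of -0.42 ± 0.14. In L2/3 IT neurons the values were 40.8, 34.4 and 58.1 CPM in controls and 26.5, 31.0 and 32.6 CPM in trained mice, a log2 change of -0.55 ± 0.18. L4/5 IT and L6 IT neurons did not overlap either, with log2 changes of -0.30 ± 0.12 and -0.32 ± 0.13. In L6 CT neurons the values overlapped, at 43.0 ± 5.80 and 41.9 ± 9.98 CPM. The sum over all nuclei had 46.3 ± 1.69 CPM in controls and 38.5 ± 6.68 CPM in trained mice, a log2 change of -0.27 ± 0.13, and there a lower share of a class and less RNA per nucleus cannot be told apart. Marker lists of 25 cell types and regions were summed in each class. Single genes separated the groups in 9.28% of all tests over the 21 sums. In Pvalb interneurons 0 of the 25 marker sums did. In L5 ET and L2/3 IT neurons 5 of 25 did, among them the microglial list (53.9 to 58.3 CPM in control and 44.8 to 46.7 CPM in trained L5 ET neurons). In L6 IT neurons 2 did and in L4/5 IT neurons 1. Their part in the result was not tested.

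**Figure D4:**
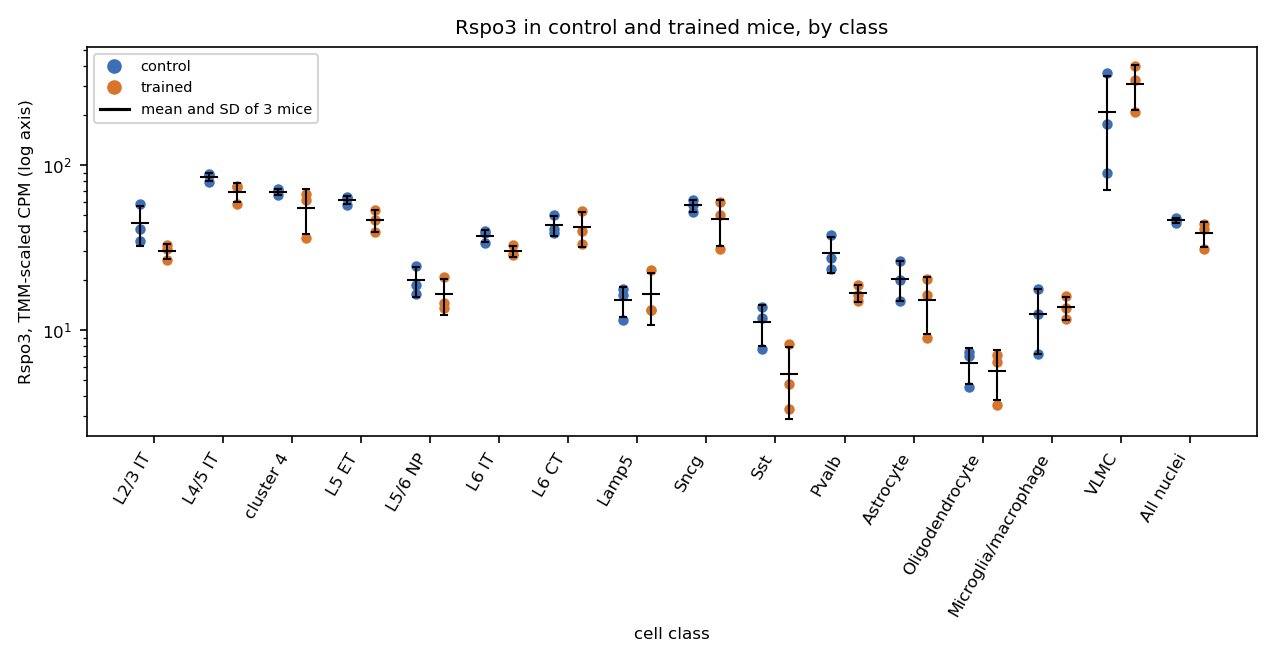
TMM-scaled CPM of Rspo3 (log axis) in 16 sums, with points for the mice and the mean and SD of 3 control and 3 trained mice. Trained means lie under control means in 13 sums, and above them in VLMC, Lamp5 interneurons and microglia and macrophages.

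Of the other pairs of gene and class whose groups did not overlap, those with the smallest unadjusted p are given here, and none passed the adjusted threshold. Dkk3 in astrocytes was 102, 101 and 84.8 CPM in controls and 169, 123 and 111 CPM in trained mice, a log2 change of 0.49 ± 0.16 (edgeR adjusted p = 0.344). Lrp6 in astrocytes was 98.6, 108 and 109 CPM in controls and 135, 125 and 149 CPM in trained mice, a log2 change of 0.37 ± 0.13 (edgeR adjusted p = 0.394). Astrocytes were the class with most calls, 0.203% of all genes. In them 6.66% of the genes tested lay lower and 7.03% higher in all trained mice, and 6 of the 25 marker sums separated the groups. Among these sums was the striatal list, at 167 to 396 CPM in controls and 666 to 2578 CPM in trained mice. That list had Isl1 at 0 and was carried by Pde10a, at 232.5, 362.5 and 137 CPM in controls and 2560.6, 634.8 and 815.1 CPM in trained mice, whereas Drd1, Drd2 and Adora2a were at most 2.0 CPM. Its part in the Dkk3 and Lrp6 values, and in the astrocyte values of Bambi and Lef1 below, was not tested.

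In Pvalb interneurons 5 of the 12 Wnt genes tested lay lower in all trained mice, Rspo3, Lgr5, Fzd4, Fzd6 and Lgr4, against 3.69% of all genes tested in that class. Lgr5 was 29.7, 19.9 and 18.5 CPM in controls and 14.8, 13.9 and 16.7 CPM in trained mice, a log2 change of -0.60 ± 0.21. Fzd4 was 4.78, 3.97 and 4.94 CPM in controls and 1.81, 2.31 and 2.58 CPM in trained mice, a log2 change of -1.04 ± 0.37. Fzd6 and Lgr4 had log2 changes of -0.40 ± 0.19 and -0.16 ± 0.11. Fzd3 in L6 IT neurons was 61.0, 63.4 and 59.2 CPM in controls and 46.4, 52.7 and 48.7 CPM in trained mice, a log2 change of -0.31 ± 0.11. On the other side, Wnt4 in L4/5 IT neurons was 10.5, 15.0 and 11.3 CPM in controls and 16.2, 19.8 and 17.1 CPM in trained mice, a log2 change of 0.52 ± 0.19. Wnt16 in the sum over all nuclei was 0.472, 0.247 and 0.246 CPM in controls and 0.656, 0.496 and 1.06 CPM in trained mice, a log2 change of 1.13 ± 0.37. Its 182 UMIs in that sum include those of VLMC, its highest class, where trained mice also lay above controls. In such a sum a higher share of a class and more RNA per nucleus cannot be told apart.

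The inner parts of the pathway were read from the same fits through 6 lists of 109 other genes, of which 107 were tested. By edgeR 0 of their 1466 tests passed. The unadjusted p was under 0.05 in 73 (4.98%), 50 lower and 23 higher, and groups did not overlap in 165 (11.3%), against 3.99% and 9.28% of the tests of all genes. DESeq2 called 2 and gave 51 at an unadjusted p under 0.05. At that unadjusted level the Wnt secretion list had 11 of 139 tests (9 lower), surface modulators 21 of 236 (13 lower), beta-catenin destruction and transduction 8 of 499 (4 lower), beta-catenin transcription 16 of 225 (13 lower), the polarity and calcium branches 12 of 303 (8 lower) and beta-catenin targets 10 of 112 (7 lower). List medians lay between -0.05 and 0.04 on the log2 scale. Wls, the carrier that takes Wnt proteins to the surface, was 107, 83.4 and 115 CPM in control and 63.9, 66.9 and 61.2 CPM in trained cluster 4, a log2 change of -0.66 ± 0.12. Its edgeR adjusted p was 0.346 and DESeq2 gave 0.00584. Wls had lower trained means in 17 of 20 sums. Bambi, a target gene that encodes a decoy receptor of the TGF-beta family, was 3.16, 8.86 and 2.56 CPM in control and 24.2, 12.3 and 19.9 CPM in trained astrocytes. Its log2 change was 1.90 ± 0.38 with an edgeR adjusted p of 0.0583, and DESeq2 gave 0.00388. Without control mouse 3 the edgeR value was 0.0053 and without trained mouse 4 it was 0.0154. Leaving out any other mouse did not bring Bambi past the threshold. The limits given above for astrocytes hold for Bambi too.

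The remaining lists had these leading pairs, none past the threshold. Lef1, a TCF/LEF factor, was 48.0, 42.6 and 42.2 CPM in control and 29.8, 26.0 and 33.6 CPM in trained astrocytes, a log2 change of -0.58 ± 0.16. Cxxc4, which binds Dishevelled, was 80.2, 73.4 and 76.2 CPM in control and 49.6, 58.5 and 58.6 CPM in trained cluster 4, a log2 change of -0.47 ± 0.09. Kremen1, a receptor for Dkk proteins, was 6.73, 8.72 and 7.12 CPM in control and 13.5, 10.4 and 11.9 CPM in trained cluster 4, a log2 change of 0.66 ± 0.17. In cluster 4, 5.42% of the genes tested lay lower and 5.06% higher in all trained mice, and 5 of the 25 marker sums separated the groups. Among these sums was the L6 CT list, at 603 to 662 CPM in controls and 513 to 540 CPM in trained mice. Prickle2, of the polarity branch, was 306, 281 and 349 CPM in control and 143, 215 and 160 CPM in trained VLMC, a log2 change of -0.83 ± 0.22. In VLMC 6.91% of the genes tested lay lower and 7.2% higher in all trained mice, and 6 of the 25 marker sums separated the groups. Their part in the Prickle2 values was not tested.

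Whether a training difference in a class differed from that in all other nuclei of the same mice was tested as an interaction, with the mouse as a block. Of 768 tests of Wnt genes 1 passed, Rspo3 in VLMC, against 0.157% of 358774 tests over all genes and 1.84% in the VLMC fit. At an unadjusted p under 0.05 there were 57 (7.42%), against 4.94% of all tests, and DESeq2 called 0 and gave 25. Unscaled Rspo3 was 332, 165 and 85.0 CPM in control and 375, 195 and 294 CPM in trained VLMC, and 46.0, 44.0 and 47.3 CPM in control and 29.8, 38.6 and 40.3 CPM in trained nuclei of all other classes. The groups overlapped in VLMC and did not in the rest. The difference of the log2 changes was 0.84 ± 0.23 (edgeR adjusted p = 0.023), and VLMC taken alone gave 0.55 ± 0.41. The call ended without control mouse 3 (adjusted p = 0.12), control mouse 5 (0.697), trained mouse 2 (0.347) or trained mouse 6 (0.106), and by DESeq2 (0.529).

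The makeup of VLMC varied between mice, and its part in that result was not tested. Cluster 22, where Rspo3 was highest, held 24.1, 9.02 and 4.59% of the VLMC nuclei of the control mice and 47.8, 15.5 and 28.7% of those of the trained mice, which overlapped. Within cluster 22 Rspo3 was 1125, 1088 and 826 CPM in controls and 595, 847 and 716 CPM in trained mice, on 5 to 43 nuclei a mouse. In cluster 16 it was 27.5, 23.2 and 10.8 CPM in controls and 12.9, 15.4 and 15.0 CPM in trained mice. In cluster 25 it was 598, 330 and 158 CPM in controls and 133, 389 and 442 CPM in trained mice. The trained mean, higher in the class, was lower within each of the 3 clusters, but the groups overlapped in each. Cluster 16 had 1 to 12 Rspo3 UMIs a mouse. Cluster 25 had 2 to 27 UMIs on 4 to 24 nuclei a mouse, so its order rests on few molecules. These clusters were looked at after the values of the class were seen, and no test was run on them. In VLMC 6.91% of the genes tested lay lower and 7.2% higher in all trained mice, and 6 of the 25 marker sums separated the groups. Among these sums were the glutamatergic list (176 to 220 CPM in controls, 80.1 to 105 in trained mice) and the microglial list (154 to 249 and 84.4 to 116 CPM). Their part in the result was not tested.

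**Figure D5:**
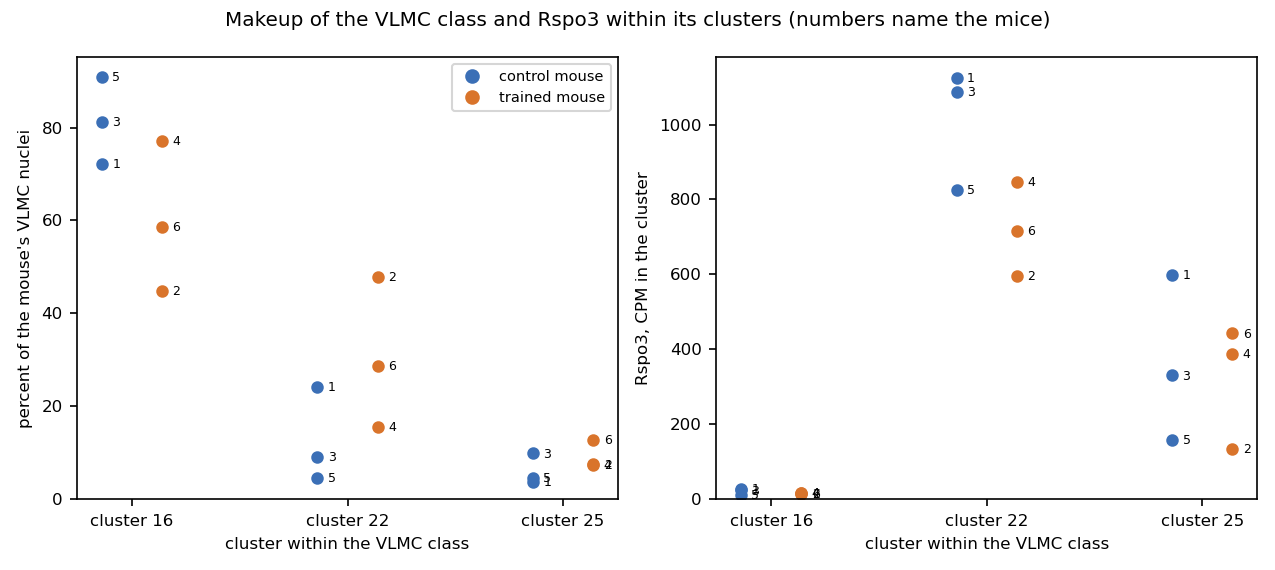
Left, percent of each mouse's VLMC nuclei in clusters 16, 22 and 25. Right, CPM of Rspo3 within each cluster, with numbers naming the mice. Cluster 22 holds 4.59 to 24.1% of control and 15.5 to 47.8% of trained VLMC nuclei and has the highest Rspo3 in every mouse.

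The 3 pairs of smallest unadjusted p in the interaction did not pass, although each had a smaller unadjusted p than Rspo3 in VLMC. Adjustment was made within the fit of each class. Rspo2 in L5/6 NP neurons had 5, 2 and 1 UMIs in controls and 14, 8 and 2 UMIs in trained mice, and the difference of log2 changes was 2.24 ± 0.55 (edgeR adjusted p = 0.0545). Without trained mouse 6 it passed (adjusted p = 0.0299). Lgr5 in Pvalb interneurons differed from the rest by -0.90 ± 0.21 (edgeR adjusted p = 0.127). Rspo2 in L6 IT neurons was 124, 86.0 and 111 CPM in controls and 96.7, 80.5 and 76.6 CPM in trained mice, against 33.9, 24.3 and 29.3 CPM and 32.3, 28.6 and 28.2 CPM in the rest, a difference of -0.36 ± 0.09 (edgeR adjusted p = 0.252).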

How the data were processed

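The members and gene lists were chosen with earlier results of these data known. The authors deposited raw UMI counts per gene and nucleus, made with Cell Ranger 4.0.0 on mm10 per the submitters' processing notes; use of introns and strand, and any filter on barcodes, are not stated there. Barcode suffixes name the 6 mice. The suffixes match the titles of shallow sequencing runs, and whether the table also holds the deep runs is not known, so each mouse counted once. The labels name separate mice.

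From the counts, nuclei were filtered (500 genes, 5% mitochondrial UMIs), doublets were called from simulated doublets at an expected 6%, and nuclei were clustered (scanpy 1.11.5, 30 principal components, 20 neighbours, Leiden resolution 1.0) and named from marker lists. UMIs were summed per mouse and class and tested with edgeR 4.0.16 (TMM, filterByExpr, quasi-likelihood test, Benjamini-Hochberg over all genes of a sum, threshold 0.05). The scripts were tested on simulated data. Alternatives were DESeq2 1.42.0, other scaling, no filter, leaving out each mouse, doublets kept and other clusterings.

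Genes were named by rule: members at 20 CPM in their highest class, members past the threshold, the 10 pairs of member and class of smallest unadjusted p whose groups did not overlap, the 3 of smallest p in the interaction, the pair of smallest p in each pathway list, and the highest and lowest cluster where a class held several. L6b neurons (136 nuclei, 3 in trained mouse 4) were not tested. Levels in the first sections are unscaled CPM. With 3 mice a group, p-values measure the spread between these mice.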

Additional observations from a re-analysis of the deposited data

Results flagged for a closer look

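Rspo3 in VLMC differed between trained and control mice otherwise than in the rest of the same mice, by a test of the difference itself. This was 1 call in 768 such tests of Wnt genes. Of the tests of all genes 0.157% were called, and 1.84% of those in the VLMC fit. The log2 change in VLMC minus that in all other nuclei was 0.84 ± 0.23 (edgeR quasi-likelihood test, adjusted p = 0.023), and it was 0.55 ± 0.41 in VLMC alone. All 3 trained mice lay above the control mean in VLMC, trained mouse 4 barely so (195 against 194 CPM). The groups overlapped there, with control mouse 1 at 332 CPM above trained mice 4 and 6. In the rest all 3 trained mice lay under every control mouse. Over the mice left out in turn, the difference ranged from 0.44 to 1.39, and the call was lost in 4 of the 6 and by DESeq2 (adjusted p = 0.529). Within each of the 3 VLMC clusters the trained mean of Rspo3 was lower, but the groups overlapped in each. In cluster 22 it was 1125, 1088 and 826 CPM in controls and 595, 847 and 716 CPM in trained mice. Cluster 22 held 4.59 to 24.1% of control and 15.5 to 47.8% of trained VLMC nuclei, and the part of that makeup in the result was not tested.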

How the results depend on the processing

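With 3 mice a group, few molecules in vascular classes and calls that move with single mice, small changes of these genes were not detectable. The count of Wnt genes past the threshold, 0 in the comparison of trained with control mice, was 3 with no filter on low counts (Rspo3 in Pvalb interneurons, adjusted p = 0.0428; Fzd4 in VLMC, 0.0292; Wnt16 in VLMC, 0.00027, on 58 UMIs) and stayed 0 under the other alternatives, DESeq2 included. For the other pathway genes the count of 0 became 2 by DESeq2, 7 with no filter and 0 to 2 without 1 mouse in turn (Bambi and Tle3 in astrocytes without control mouse 3, Bambi without trained mouse 4). In the interaction the count of 1 became 0 by DESeq2, 2 with no filter and 0 to 2 without 1 mouse in turn. Pairs that passed by edgeR only then were Lgr5 in Pvalb interneurons with no filter (adjusted p = 0.00991) and 3 without a trained mouse. These were Rspo3 in Sst interneurons without mouse 2 (0.026), Fzd4 in VLMC without mouse 4 (0.0392) and Rspo2 in L5/6 NP neurons without mouse 6 (0.0299). The causes were not tested. Of the 28 genes, 25 to 28 kept their highest class under other scalings, clusterings and doublet settings, the 28 with doublets kept and at resolution 0.5, and 25 to 27 without 1 mouse in turn. A clustering at resolution 2.0 was chosen after seeing the data. No named difference between trained and control mice changed sign under the alternatives run. The order of classes did for some genes: Rspo2 was higher in L6 IT neurons than in VLMC under TMM scaling over classes. Wnt7a, Wnt7b, Wnt9a, Lrp6, Fzd3 and Axin2 changed their highest class under at least 1 alternative. Fzd2 moved only at resolution 2.0, from astrocytes (180 CPM) to a cluster of 2136 nuclei without a class name (211 CPM). That cluster was led by Gpr37l1, F3 and Slc7a10, and the astrocyte class went from 6064 to 3928 nuclei at that resolution. F3 and Plpp3 were leading genes both of that cluster and of astrocyte cluster 1 in the main clustering, so Fzd2 need not have left astrocytes. No paired analysis was possible because the mouse numbers of the 2 groups are not shared.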

Other observations

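In L6b neurons, which were too few to test (136 nuclei), Rspo3 was 106, 79.1 and 70.4 CPM in control mice 1, 3 and 5 and 44.2, 139.6 and 112 CPM in trained mice 2, 4 and 6, the last but one on 3 nuclei. Rspo2 was 91.1 ± 56.1 CPM there (SD, n = 6), with a range of 11.3 to 174 CPM. At the finer clustering, cluster 4 separated into 2660 nuclei led by Il1rapl2, Rxfp2 and Deptor and 1863 nuclei led by 1700047F07Rik, Scn7a and Il1rapl2. Rspo2 was 108 ± 18.8 CPM in the first and 30.7 ± 13.6 CPM in the second, and their ranges over mice (91.5 to 141 and 14.4 to 48.2 CPM) did not overlap. Wnt9a had the opposite order, at 18.7 ± 3.77 and 31.8 ± 4.53 CPM. This division was chosen after seeing the data, and the classes come from the same counts, so these values carry no test.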
